A study of Homo sapiens with 6 samples.

Results

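The genes described here are 37 that belong to the response driven by the transcription factor ATF4. They were taken by symbol as 3 groups. The first holds 13 factors and effectors of the integrated stress response. The second holds 10 enzymes of serine, one-carbon, asparagine, proline and cysteine metabolism. The third holds 13 cytosolic aminoacyl-tRNA synthetases, chosen as linked to ATF4, with the tRNA exporter XPOT, which makes 14. Of the 37 genes, 36 were found among the 33644 genes of the table, and SESN2, an inhibitor of the growth kinase complex mTORC1, was not analysed here. The study set HEK293T cells, an immortalised human embryonic kidney line that expresses viral large T antigen (labelled WT, no treatment, day 0), against an alt-LAMA3 KO derivative of the same line (no treatment, day 0), with 3 samples in each group. Whether the knockout is 1 clone, and whether the 3 samples of a group are separate cultures, is not in the labels; the spread behind the p-values may therefore be technical only. The data are 1 table with a mean and 1 comparison per gene, without values per sample and without the names of the groups compared. Below, a positive log2 fold change means a higher level in the numerator group of the authors' ratio and a negative one a higher level in the denominator group. The table does not show which of them is the knockout, or that the compared libraries are those of the labelled HEK293T samples: markers of T lymphocytes are abundant in it and those of HEK293-derived lines are mostly near 0, as detailed below. The table may therefore hold another comparison than the labelled one, and no direction is read as an effect of the knockout. A value after ± is the standard error the authors' table gives.

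In the integrated stress response, kinases that sense amino acid shortage, unfolded protein, double-stranded RNA or haem deficiency phosphorylate the translation factor eIF2. General translation then falls, while the mRNA of ATF4 is translated more. ATF4 pairs with other leucine zipper proteins, among them members of the C/EBP family, and activates genes for amino acid synthesis, amino acid uptake and tRNA charging, as well as genes of cell death and of feedback on the response. The serine branch starts from a glycolytic intermediate and feeds the mitochondrial folate cycle, which supplies one-carbon units for nucleotides, and it is known for its induction in proliferating lymphocytes and tumour cells.

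ATF4 and its partners bind a composite C/EBP-ATF element, for which the letters TGATGNAA were searched on both strands (TTNCATCA on the opposite strand, with N any base) in RefSeq promoter windows of GRCh38.p14. Each window runs from 250 bases before a transcript start to 50 after it. A window was matched for 30 of the 37 genes; NUPR1, PSPH, SHMT2, PYCR1, LARS1, VARS1 and YARS1 had none. The letters were found for 11 of the 30 genes, namely ATF3, CHAC1, CEBPG, ASNS, AARS1, CARS1, GARS1, IARS1, MARS1, NARS1 and TARS1. By comparison, 1217 of all 27305 genes with a window held them (4.46%). Counted by window it was 11 of 45 for the 30 genes, beside 1270 of all 35116 windows (3.62%). Of the genes described here with both a window and an adjusted p, 10 held them and 18 did not, beside 271 of all 9926 such genes (2.73%). By group, 7 of 11 matched genes of the synthetase group held them, 3 of 12 stress response factors and 1 of 7 metabolic enzymes. Because the genes were chosen for their link to ATF4, these shares are a description and no test of that link. The following 30-base stretches show the element, in capitals, in the 7 synthetase genes, in ASNS and in CHAC1, each written 5′ to 3′ on the strand of its gene.
AARS1 (chr16:70289675-70289704, minus strand): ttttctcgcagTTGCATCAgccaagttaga
CARS1 (chr11:3057407-3057436, minus strand): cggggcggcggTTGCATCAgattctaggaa
GARS1 (chr7:30594834-30594863, plus strand): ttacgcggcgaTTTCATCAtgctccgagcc
IARS1 (chr9:92293692-92293721, minus strand): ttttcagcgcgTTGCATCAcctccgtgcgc
MARS1 (chr12:57488053-57488082, plus strand): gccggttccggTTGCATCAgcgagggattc
NARS1 (chr18:57621804-57621833, minus strand): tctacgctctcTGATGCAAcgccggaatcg
TARS1 (chr5:33440956-33440985, plus strand): gcgcctttcgaTTGCATCAgctggtccagc
ASNS (chr7:97872458-97872487, minus strand): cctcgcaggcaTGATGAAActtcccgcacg
CHAC1 (chr15:40953251-40953280, plus strand): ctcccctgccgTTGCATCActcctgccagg

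In 5 of the 7 synthetase genes the matched letters are the same, TTGCATCA, NARS1 holds their reverse complement, and GARS1 differs at the open base. In 6 of the 7 synthetase genes the element begins close to the transcript start, between position -33 (GARS1) and 14 (NARS1) with the start base as 0 and positions before it negative, whereas in AARS1 it begins at -187. In ASNS it begins at -68 and in CHAC1 at -209. A match of letters is a description of the sequence and shows no binding. Synthetases were called both with and without the letters. Of the 7 tested synthetase genes with the element, 4 were higher in the numerator group (AARS1, GARS1, MARS1, TARS1) and 3 did not pass (CARS1, IARS1, NARS1), and their median log2 fold change was 0.32. Of the 4 whose window lacks it, 3 were higher (XPOT, EPRS1, SARS1) and WARS1 did not pass, with a median of 0.39.

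**Figure D1:**
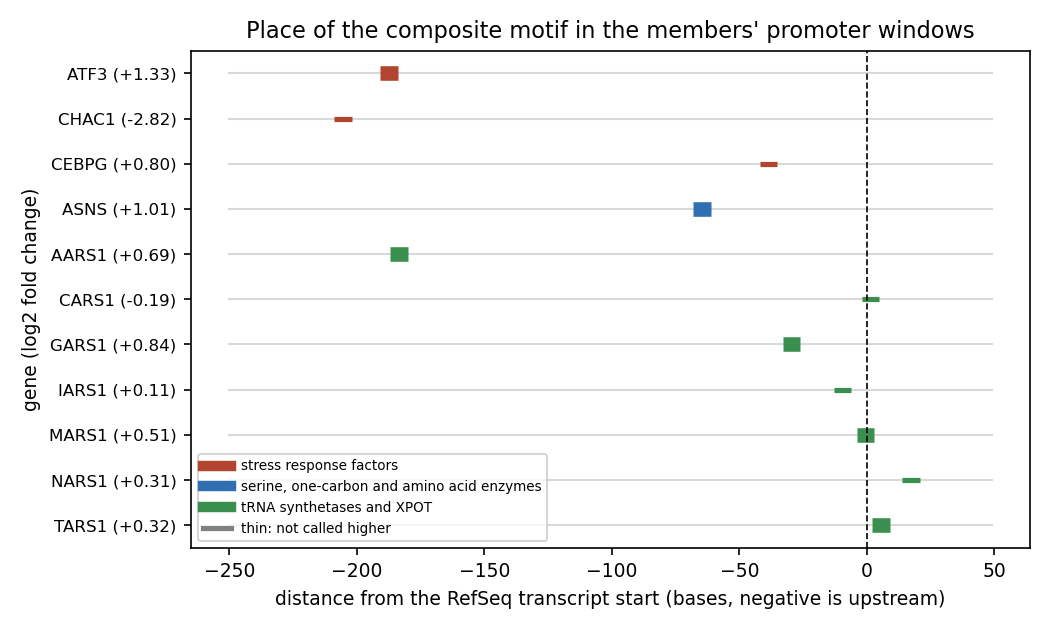
Place of the composite C/EBP-ATF letters in the promoter windows of the 11 genes that hold them, as distance in bases from the RefSeq transcript start (dashed line), with each gene's log2 fold change beside its name. Thick bars mark genes called higher in the numerator group, and grey lines span the 300-base window. The synthetase elements, AARS1 apart, lie from -33 to 14.

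Before the changes themselves, 3 facts about the table bear on them. To begin with, calls were common: over the 13957 genes with an adjusted p, 14.7% had higher and 14.8% lower levels in the numerator group (adjusted p under 0.05). Among the 8312 of them whose mean normalized count reached 72.0, which is 5 per 1000000 of the summed means, the shares were 21.0% and 21.6%, and the median log2 fold change was -0.01. In addition, the labelled cell type was not borne out by its markers. Of 15 markers of HEK293-derived lines and epithelium, 14 lay under that minimum and NEFL, NEFM, SALL1, TUBB2B and PRAME were listed at 0 in the authors' deposited table, whereas 13 of 16 T-lymphocyte markers reached it, up to 27074 for CD8A. PEG10, the 1 HEK293 marker above the minimum, had a mean of 194 and was higher in the numerator group. It was at 2.32 ± 0.22 (adjusted p = 7.94e-25) in the authors' deposited table, the direction of most genes described here. Whether the rest of the list shared that direction could not be read, as its means were low and its errors wide. Of its 5 tested markers 2 had positive values, 1 was called higher and 0 lower, and the median log2 fold change was -0.02. Besides PEG10 these were KRT8 (-0.77 ± 1.17), CDH2 (2.26 ± 1.92), CRABP2 (-0.02 ± 1.72) and GATA3 (-0.58 ± 0.46). The markers with a value but no adjusted p were all positive. They were KRT18 (2.72 ± 2.75), EPCAM (2.27 ± 2.28), SALL2 (4.90 ± 2.80), PAX2 (1.93 ± 2.69) and LIN28B (0.66 ± 4.07). Moreover, the T-lymphocyte markers moved against the genes described here. Of 14 tested, 0 were higher in the numerator group (0 also at an unadjusted p under 0.05 in the authors' deposited test) and 11 were lower, with a median log2 fold change of -0.60. In bulk RNA, fewer cells of a type and less RNA per cell cannot be told apart, summed marker levels per group are not known from the table, and the part of cell composition in the changes below was not tested.

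Over the 33 genes of the 3 groups with an adjusted p, 21 were higher in the numerator group and 1 was lower. Of all genes tested, 14.7% were higher and 14.8% lower. The median log2 fold change of the 33 genes was 0.54, where it was 0.00 over all genes tested. Every metabolic enzyme was tested, as were 10 of the 13 stress response factors and 13 of the 14 genes of the synthetase group. The groups were not alike. The metabolic enzymes had the highest share of calls and a median log2 fold change of 0.93, the stress response factors were mixed around a median of 0.53, and the synthetases had a median of 0.31 with small errors. Differences of at least 2-fold with an adjusted p under 0.05 were found for 8 of the 33 genes, beside 8.04% of all genes tested. These 8 were 5 metabolic enzymes and 3 stress response factors, with none from the synthetase group, whose largest log2 fold change was 0.84.

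**Figure D2:**
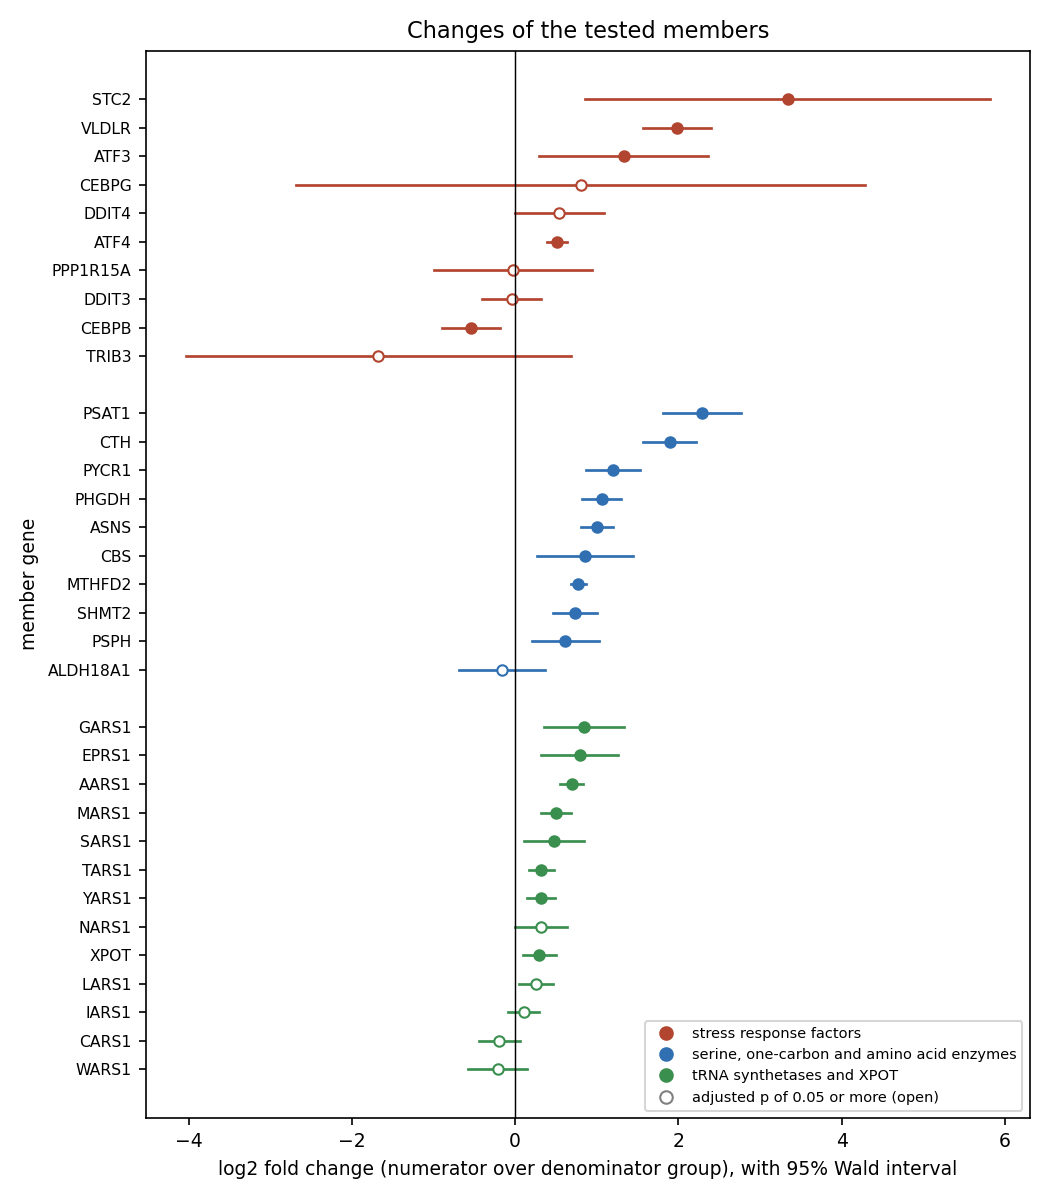
Log2 fold change (numerator over denominator group) of the 33 tested genes with its 95% Wald interval, by group. Filled points passed an adjusted p of 0.05. Of the metabolic enzymes 9 of 10 lie to the right of 0 and passed, and of the synthetase group 8 of 13, while the stress response factors span from -1.68 (TRIB3) to 3.34 (STC2).

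The enzymes of serine synthesis were higher in the numerator group at all 3 steps. PSAT1, the aminotransferase of the middle step, had a mean normalized count of 153 and a log2 fold change of 2.29 ± 0.25 (adjusted p = 3.61e-19) in the authors' deposited table, which is 4.89-fold. PHGDH, which commits the glycolytic intermediate to the pathway, had a mean of 1757 and a log2 fold change of 1.06 ± 0.12 (adjusted p = 5.38e-17) in the authors' deposited table. For PSPH, the phosphatase that releases serine, the authors' deposited table gave a mean of 231 and 0.61 ± 0.21 (adjusted p = 0.0151). The step in the middle thus had the largest log2 fold change and the lowest mean, and its 95% interval (1.81 to 2.77) lay wholly above those of PHGDH (0.82 to 1.30) and PSPH (0.20 to 1.03). PHGDH lies on chromosome 1 from 119648411 to 119744226, PSAT1 on chromosome 9 from 78297143 to 78330093 and PSPH on chromosome 7 from 56011051 to 56051604 (GRCh38, GENCODE 29).

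Downstream of serine, both mitochondrial folate enzymes of the group were higher. MTHFD2, the mitochondrial methylenetetrahydrofolate dehydrogenase, was the most abundant of the 10 enzymes at a mean of 7911, with a log2 fold change of 0.78 ± 0.05 (adjusted p = 1.57e-56) in the authors' deposited table. SHMT2, which splits serine into glycine and a one-carbon unit in mitochondria, had a mean of 1569 and 0.74 ± 0.14 (adjusted p = 1.19e-06) in the authors' deposited table. The pair of enzymes that turns serine and homocysteine into cysteine was also higher. CTH, which releases cysteine from cystathionine, was at 1.90 ± 0.17 (adjusted p = 1.22e-28) with a mean of 361, and CBS, which makes cystathionine, at 0.85 ± 0.30 (adjusted p = 0.0184) with a mean of 74.8, both in the authors' deposited table. CBS was the lowest of the 10 in level.

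ASNS, which makes asparagine, had a mean of 2206 and a log2 fold change of 1.01 ± 0.10 (adjusted p = 2.29e-22) in the authors' deposited table, a 2.01-fold difference. Of the 2 enzymes of proline synthesis in the group 1 was called. PYCR1, which carries out the last step, was at 1.20 ± 0.17 (adjusted p = 2.40e-11), while ALDH18A1, which carries out the first steps, was at -0.16 ± 0.27 (adjusted p = 0.732) in the authors' deposited table, at nearly equal means of 433.7 and 434.0. The 95% interval of ALDH18A1 ran from -0.69 to 0.36, below that of PYCR1 (0.87 to 1.53). In all, 9 of the 10 enzymes were higher and 0 lower (0 also at an unadjusted p under 0.05 in the authors' deposited test), where 14.7% of all genes tested and 21.0% of those with a mean of at least 72.0 were higher.

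Among the stress response factors ATF4 itself was abundant and modestly higher. Its mean normalized count was 8517 and its log2 fold change 0.51 ± 0.06 (adjusted p = 2.33e-14) in the authors' deposited table, a 1.43-fold difference. The locus lies on chromosome 22 from 39519695 to 39522685 (GRCh38, GENCODE 29). Since ATF4 is known to be controlled largely in translation, its mRNA level does not give the level of its protein, which was not measured here.

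The other leucine zipper genes gave 1 call in each direction. ATF3, which ATF4 is known to induce and which acts largely as a repressor, was at 1.33 ± 0.53 (adjusted p = 0.0424) with a mean of 81.6 in the authors' deposited table. CEBPB was lower in the numerator group, at -0.54 ± 0.18 (adjusted p = 0.0110) with a mean of 192 in the authors' deposited table, the 1 call in that direction among the 33 genes, where 14.8% of all genes tested were lower. DDIT3, which encodes the CHOP factor of stress-induced cell death, was at -0.04 ± 0.19 (adjusted p = 0.911) with a mean of 193 in the authors' deposited table, with a 95% interval of -0.41 to 0.32. CEBPG, a dimer partner of ATF4, was at 0.80 with an error of 1.78 (adjusted p = 0.812) in the authors' deposited table, so that a difference of several fold was not detectable for it.

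Of the effectors, VLDLR and STC2 were higher. VLDLR, a lipoprotein receptor, was at 1.98 ± 0.21 (adjusted p = 8.19e-19) with a mean of 247 in the authors' deposited table, which is 3.95-fold. STC2, a secreted glycoprotein, had the largest log2 fold change of all 33 genes, 3.34, but a mean of only 16.7 and an error of 1.26 (adjusted p = 0.0307) in the authors' deposited table. DDIT4, an inhibitor of mTORC1, was at 0.54 ± 0.28 (adjusted p = 0.142) with a mean of 70.1 in the authors' deposited table. PPP1R15A, which brings a phosphatase to eIF2 and so ends the response, was at -0.03 ± 0.49 (adjusted p = 0.977) with a mean of 27.3 in the authors' deposited table.

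The remaining 3 effectors were close to the limit of detection. TRIB3, a pseudokinase that restrains ATF4 activity, had a mean of 3.70 and a log2 fold change of -1.68 ± 1.20 (adjusted p = 0.330) in the authors' deposited table. NUPR1, a small stress-induced nuclear protein, and CHAC1, which degrades glutathione, had means of 1.37 and 0.373 and no adjusted p in the authors' deposited table. Of the 10 stress response factors tested, 4 were higher (40%), 1 lower (10%) and 5 did not pass. The shares over all genes tested were 14.7% higher and 14.8% lower.

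The synthetase group gave smaller and more even differences. AARS1, the alanyl-tRNA synthetase, had a mean normalized count of 4384 and a log2 fold change of 0.69 ± 0.07 (adjusted p = 3.36e-20) in the authors' deposited table, a 1.62-fold difference. GARS1, which charges glycine tRNA in cytosol and mitochondria, was at 0.84 ± 0.25 (adjusted p = 0.00358) and EPRS1, which charges both glutamate and proline tRNA, at 0.79 ± 0.24 (adjusted p = 0.00485) in the authors' deposited table, with lower means of 157 and 209. MARS1, for methionine, was at 0.51 ± 0.09 (adjusted p = 8.03e-07) and SARS1, for serine, at 0.48 ± 0.19 (adjusted p = 0.0368) in the authors' deposited table. The intervals of these 5 genes overlap, so that no order among them is given.

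TARS1, for threonine, was at 0.32 ± 0.08 (adjusted p = 0.000150) with a mean of 5737 in the authors' deposited table. YARS1, for tyrosine, was at 0.31 ± 0.09 (adjusted p = 0.00189) with a mean of 4844 in the authors' deposited table. XPOT, which carries tRNA out of the nucleus, was at 0.30 ± 0.10 (adjusted p = 0.0155) with a mean of 548 in the authors' deposited table. These 3 genes were called at differences of 1.23-fold to 1.25-fold.

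For 5 synthetases the test did not pass. NARS1, for asparagine, was at 0.31 ± 0.16 (adjusted p = 0.138) and LARS1, for leucine, at 0.25 ± 0.11 (adjusted p = 0.0591), with means of 407 and 2398 in the authors' deposited table. IARS1, for isoleucine, was the most abundant of the group at a mean of 7194 and was at 0.11 ± 0.10 (adjusted p = 0.465) in the authors' deposited table, with a 95% interval of -0.08 to 0.30. CARS1, for cysteine, at -0.19 ± 0.13 (adjusted p = 0.295), and WARS1, for tryptophan, which interferon is known to induce, at -0.21 ± 0.18 (adjusted p = 0.437), were the only tested members of the group with negative values in the authors' deposited table. The intervals of IARS1, CARS1 and WARS1 all lay below that of AARS1 (0.55 to 0.83). The same held for LARS1 and for TARS1, YARS1 and XPOT, which were called higher, so this does not set genes that did not pass apart. VARS1, for valine, had a mean of 1.85 and no adjusted p in the authors' deposited table, while the other 13 genes of the group had means of at least 157. In all, 8 of 13 were higher and 0 lower (0 also at an unadjusted p under 0.05 in the authors' deposited test). Of all genes tested, 14.7% were higher and 14.8% lower, or 21.0% and 21.6% at means of at least 72.0.

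Of the 36 genes, 7 overlap another protein-coding gene in position, which matters where reads of both strands are counted together; whether counting used strand is not given in the sources used here. MARS1 and DDIT3 share 982 bases on opposite strands of chromosome 12 (57516588 to 57517569), and MARS1 also shares 13370 bases with ARHGAP9, which had a mean of 2817 and a log2 fold change of -0.47. MTHFD2 shares 1324 bases with SLC4A5, at a mean of 59.1, and YARS1 shares 1387 with S100PBP, at 416. Pseudogene copies had low means: 26 pseudogenes named for 11 of the genes had means of at most 2.60, and 17 were at 0.

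**Figure D3:**
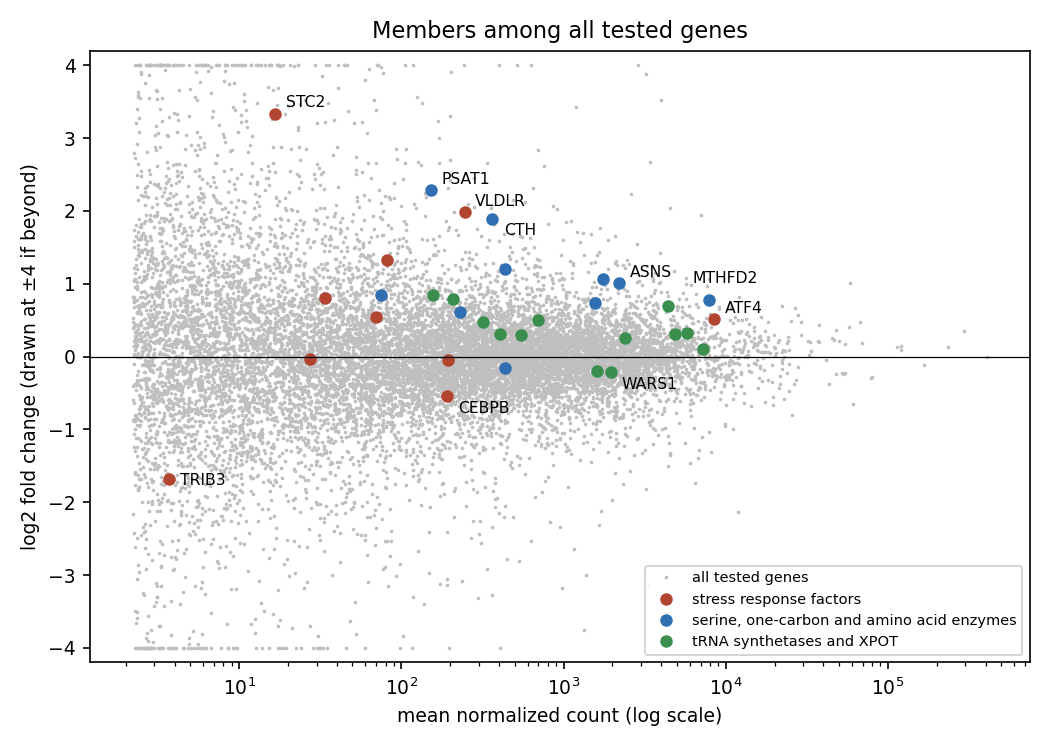
Log2 fold change against mean normalized count (log scale) for all 13957 tested genes (grey) and the 33 tested genes of the 3 groups (coloured), with values beyond 4 drawn at 4. PSAT1, CTH and VLDLR lie near the upper edge of the grey cloud at their means, the synthetases closer to 0, and TRIB3 and STC2 in the wide part of the cloud at low means.

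Calls depended on the null hypothesis tested. Tested against a 1.5-fold change, 7 of the 33 genes were called (VLDLR, ASNS, PHGDH, PSAT1, MTHFD2, PYCR1, CTH), beside 4.68% of all genes, and no synthetase was. With errors widened by a factor of 2.03, the spread of all statistics, 9 were called (the same 7 with ATF4 and AARS1), beside 8.57% of all genes.

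Most synthetases of the group have a mitochondrial counterpart encoded by another gene, which allowed the same amino acid to be compared across compartments. In 9 pairs both genes were tested, and the cytosolic gene had the higher log2 fold change in 8 of them, the exception being WARS1. Of the cytosolic genes in these pairs 5 were higher in the numerator group, while of the mitochondrial ones 0 were higher and 2 lower. Of all genes tested, 14.7% were higher and 14.8% lower, or 21.0% and 21.6% at means of at least 72.0. SARS2, for serine, was at -0.44 ± 0.13 (adjusted p = 0.00285) and MARS2, for methionine, at -0.28 ± 0.11 (adjusted p = 0.0428) in the authors' deposited table, against 0.48 and 0.51 for SARS1 and MARS1. The 95% intervals did not overlap in 4 pairs: EPRS1 with EARS2, MARS1 with MARS2, SARS1 with SARS2 and YARS1 with YARS2. The difference within a pair was not tested further. How often the intervals of unrelated genes fail to overlap was not computed, so these counts show no contrast particular to the compartments. Over the whole list of mitochondrial synthetases, 0 of 13 tested were higher (0 also at an unadjusted p under 0.05 in the authors' deposited test) and 2 were lower (15.4%, near the 14.8% of all genes tested), with a median log2 fold change of -0.23.

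The mitochondrial folate enzymes were compared with their relatives in the same way. SHMT1, the cytosolic form of SHMT2, was at -0.01 ± 0.17 against 0.74, and MTHFD2L, a mitochondrial relative of MTHFD2, at 0.18 ± 0.14 against 0.78 in the authors' deposited table. In both pairs the member's interval lay wholly above that of its partner.

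**Figure D4:**
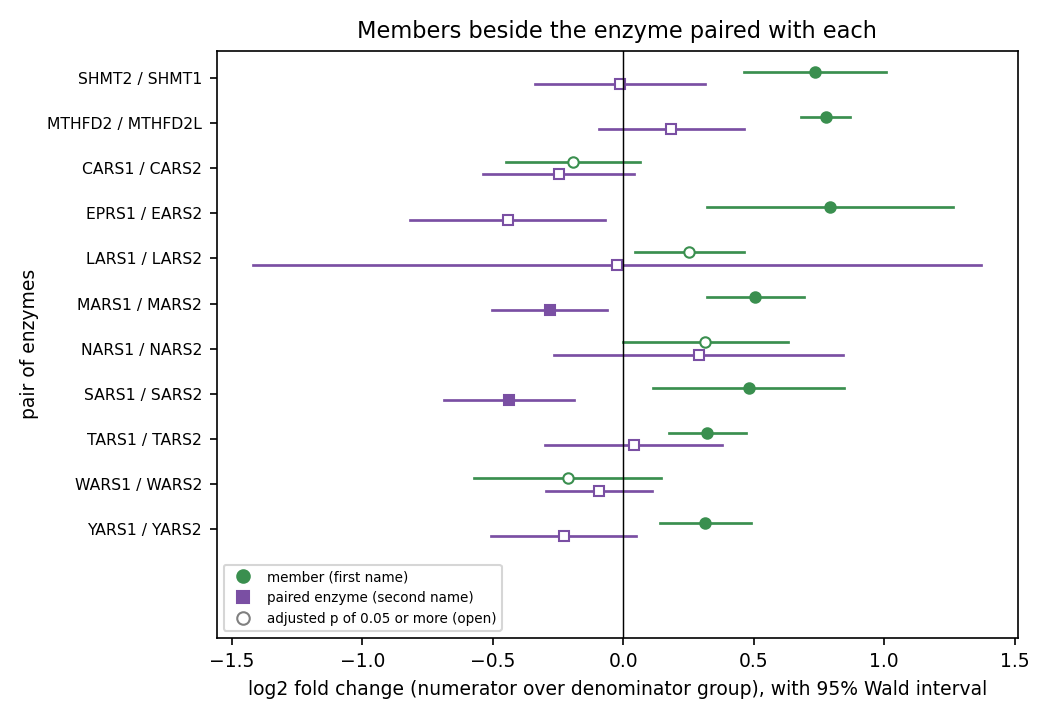
Log2 fold change with its 95% Wald interval for each member (circle) and the enzyme paired with it (square), for 11 pairs in which both were tested. Filled symbols passed an adjusted p of 0.05. Circles lie to the right of squares in every pair but WARS1 with WARS2, and 6 pairs of intervals do not overlap. The share of such pairs among unrelated genes was not computed.

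Levels were compared per length, as the mean normalized count per kilobase of the union of a gene's exons. On this scale the median was 150 for the metabolic enzymes, 130 for the synthetase group and 14.5 for the stress response factors, where it was 34.6 for all genes tested. The group medians include CHAC1, NUPR1 and VARS1, which have no adjusted p, while the 34.6 covers only genes with one. For tested protein-coding genes alone the median was 41.5, which is above GARS1 (37.7) and EPRS1 (38.3). The metabolic enzymes were above 34.6 in 9 of 10 genes, the synthetase group in 13 of 14 and the stress response factors in 3 of 12. With median transcript length in place of the exon union, the synthetase group (1050) stood above the metabolic enzymes (539), so that no order between these 2 groups is given. The stress response factors (60.9) were lowest under that length too.

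Within groups the levels differed widely. ATF4 was the highest of all 36 at 3388 per kilobase, at percentile 99.2 of the tested genes, and CHAC1 the lowest at 0.181. The next stress response factors after ATF4 were DDIT3 at 148 and CEBPB at 98.4 per kilobase. Among the enzymes MTHFD2 led at 1624 per kilobase, followed by ASNS at 495, SHMT2 at 324 and PHGDH at 191, and CBS was lowest at 11.0. In the synthetase group TARS1 (1003), AARS1 (975) and IARS1 (972) were nearly equal per kilobase, GARS1 and EPRS1 lay at 37.7 and 38.3, and VARS1 at 0.304. The table gives no spread over samples for these levels, so that neighbours this close cannot be ordered.

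**Figure D5:**
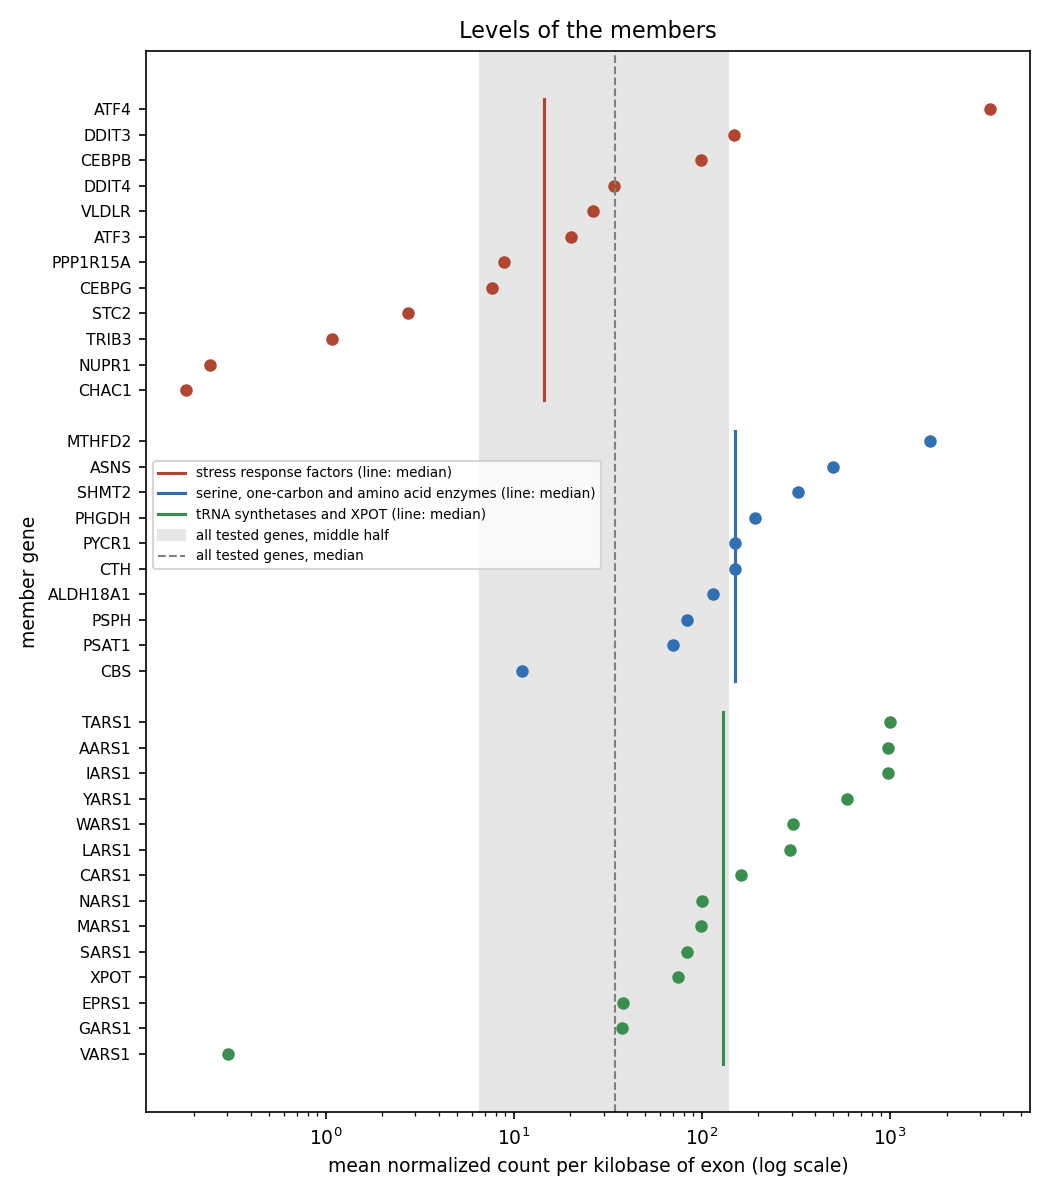
Mean normalized count per kilobase of exon (log scale) for the 36 genes by group, with the group median (vertical line), the median of all tested genes (dashed) and their quartiles (grey band). ATF4 stands far above the other stress response factors, and the medians of the enzymes (150) and synthetases (130) lie close together.

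The rest of the pathway is given by lists chosen by function, whose counts stand beside the 14.7% higher and 14.8% lower of all genes tested; differences between lists were not tested. Among 18 tested eIF2 kinases, eIF2 subunits and regulators, 0 were higher (1 at an unadjusted p under 0.05 in the authors' deposited test) and 3 lower (16.7%, near the share of all genes), with a median log2 fold change of -0.12. The 3 were DELE1, which relays mitochondrial stress to an eIF2 kinase, at -0.58 ± 0.10, EIF2B1, a subunit of the exchange factor of eIF2, at -0.29 ± 0.08, and the initiation factor EIF2A at -0.19 ± 0.05 in the authors' deposited table. All 4 eIF2 kinases were tested and did not pass; EIF2AK4, the kinase that senses uncharged tRNA, was at 0.56 ± 0.38 (adjusted p = 0.299) in the authors' deposited table.

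Other cytosolic synthetases and subunits of their complex were higher in 2 of 9 tested genes (22.2%, beside 14.7% of all genes tested). With a mean of at least 72.0 it was 2 of 7 (28.6%), beside 21.0%. In the list 0 were lower (0 also at an unadjusted p under 0.05 in the authors' deposited test), and the median log2 fold change was 0.16. The 2 higher genes were KARS1, for lysine, at 0.16 ± 0.06 and AIMP1, a scaffold of the multi-synthetase complex, at 0.17 ± 0.06 in the authors' deposited table. The composite letters were found in 0 of 9 matched genes of that list and in 1 of 14 of the mitochondrial list. The synthetase group described above was chosen as linked to ATF4 and these lists hold other synthetases. The choice may itself set this contrast, which is no test of the link. Other enzymes of serine, folate and proline metabolism were higher in 5 of 22 (22.7%) and lower in 3 (13.6%). MTHFD1L, which releases formate from mitochondria and whose windows hold the composite letters, was at 1.29 ± 0.14, while GLDC, of the glycine cleavage system, was at -0.83 ± 0.16 in the authors' deposited table.

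Further ATF, C/EBP and CREB factors were higher in 1 of 17 tested genes (5.88%) and lower in 2 (11.8%), with BATF3, a leucine zipper factor of lymphocytes and dendritic cells, at 0.82 ± 0.19 and NFE2L1 at -0.25 ± 0.09 in the authors' deposited table. Other genes known as targets of ATF4 were higher in 9 of 19 tested (47.4%) and lower in 2 (10.5%), with a median log2 fold change of 0.55. Among those with a mean of at least 72.0, the largest were CDKN1A, an inhibitor of cyclin-dependent kinases, at 1.55 ± 0.08, VEGFA, an angiogenic growth factor, at 1.44 ± 0.12, and TNFRSF10B, a death receptor, at 1.14 ± 0.13 in the authors' deposited table. CDKN1A and TNFRSF10B are also targets of p53, and VEGFA of the hypoxia-inducible factors.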

How the data were processed

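RNA of 6 labelled samples was sequenced. The submitters' processing notes list STAR, Salmon and hg38 with no role or version; for the comparison, program and model were not given in the sources used here. The columns carry, per the file headers, the names of a DESeq2 results table. The authors deposited a mean normalized count (a signal over all libraries), a log2 fold change with its error on the log2 scale, a Wald statistic (a score) and p-values. Recomputing Benjamini-Hochberg adjustment over 13957 genes gave the deposited adjusted values to within 3.66e-07. Depth per sample is unknown, and the median error was 0.14 for means of at least 72.0 and 0.80 below. No value per sample was read, so the count test planned for values per sample was replaced by the deposited test.

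Gene symbols (33483 of 33644 matched) and GENCODE 29 positions and exon lengths (33582 matched) were joined by Ensembl ID without version. Wald intervals are at 95%. A 1.5-fold null, widened errors and other gene sets for adjustment were tried, and adjustment and motif search were tested on simulated data. Members and lists were chosen with earlier results of these data known. All members are accounted for. Some genes of the context lists are counted but not reported here by name. Context genes named are up to 3 per list past the threshold of 0.05 with the largest change and a mean of at least 72.0. Python 3.11.15, numpy 2.4.6, pandas 2.3.3, scipy 1.17.1 and matplotlib 3.10.9 were used.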

Additional observations from a re-analysis of the deposited data

How the results depend on the processing

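No paired analysis was possible because the table holds no value per sample; for the same reason the alternatives with a replicate block, other size factors with another count tool or a library left out were not run. Of the stress response factors, 5 were called as deposited, 1 against a 1.5-fold change and 2 with widened errors. For the synthetase group the counts were 8, 0 (0 also by the unadjusted p of that test) and 1. For the metabolic enzymes they were 9, 6 and 6, with PSPH, SHMT2 and CBS lost in both. Of all genes tested, 4.68% were called against a 1.5-fold change and 8.57% with widened errors. The synthetase counts in these settings, out of 13 tested, did not exceed those shares. Without the filter on low means ATF3 (adjusted p = 0.0641) and SARS1 (0.0556) lost their calls, and with only means of at least 72.0 LARS1 (0.0412) gained one. Adjusting over protein-coding genes changed none of the 33 calls. No log2 fold change was re-estimated, so directions could not turn. By longest transcript the median level of the synthetase group was 237 per kilobase, and by median transcript the medians were 60.9, 539 and 1050 for factors, enzymes and synthetases. A difference smaller than about 2.4 times the error of a gene did not pass as deposited. LARS1 at a Wald statistic of 2.36 did not (adjusted p = 0.0591), whereas ATF3 at 2.51 did (adjusted p = 0.0424). A gene that did not pass is therefore not shown to be unchanged. This limits TRIB3 and CEBPG most, and CHAC1, NUPR1 and VARS1 had no adjusted p. STC2 passed, but with a mean of 16.7 and an error of 1.26.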

Other observations

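The methionine cycle, which takes one-carbon units from folate, held a pair of enzymes that moved in opposite directions, noticed after the values were seen. MTR, methionine synthase, had a log2 fold change of 0.48 ± 0.10 (adjusted p = 7.31e-06) and MTRR, the reductase that reactivates it, at -0.66 ± 0.08 (adjusted p = 6.67e-17) in the authors' deposited table. TYMS, which uses a folate one-carbon unit to make thymidylate and is high in dividing cells, was at 0.66 ± 0.10 in the authors' deposited table. GPT2, a mitochondrial alanine aminotransferase, was at 1.51 ± 0.46 with a mean of 40.3 in the authors' deposited table.

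The 2 genes called lower on the list of other ATF4 targets were MAP1LC3B and SQSTM1. These genes, an autophagosome protein and an autophagy receptor that ATF4 is known to induce, were at -0.31 ± 0.07 and -0.27 ± 0.06 in the authors' deposited table. Of 6 amino acid transporters on the same list 3 were higher, beside 14.7% of all genes tested, or 21.0% at means of at least 72.0. These 3 were SLC7A11 at 1.09 ± 0.10, SLC1A5 at 0.55 ± 0.07 and SLC3A2 at 0.36 ± 0.12 in the authors' deposited table. The other 3 did not pass: SLC7A5 was at 0.33 ± 0.17 (adjusted p = 0.131), SLC7A1 at 0.60 ± 0.83 (adjusted p = 0.670) and SLC38A2 at -0.17 ± 0.09 (adjusted p = 0.184) in the authors' deposited table. These genes were chosen after their values were seen.

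VARS1, the only gene of the synthetase group without an adjusted p, lies on chromosome 6 from 31777518 to 31795953 (GRCh38, GENCODE 29). Of 69 other coding genes within 1000000 bases of it, 33 (47.8%) had a mean below 2.22, the lowest mean with an adjusted p, against 37.1% of coding genes on the rest of chromosome 6 and 33.2% of all coding genes. This region was chosen after the value of VARS1 was seen, and why its mean is low was not tested.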
